A study of Mus musculus with 24 samples.

Results

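Prpf19, Vps37c, Golga7b and Hps1 are 4 protein-coding genes of mouse chromosome 19 for which at least 1 probe set lay lower in a high freezing line than in a low freezing line in both amygdala and hippocampus. A probe set is a group of array probes that together give 1 signal, which the platform annotation assigns to a gene. Probe sequences were not available. Which part of a transcript a probe set reads, and whether it also reads other transcripts, was therefore not checked. All probe sets whose only gene symbol in the platform annotation is one of these names, older names included, were taken, which gave 13 of the 45037 probe sets tested. The 4 genes are among 18193 that have a probe set of their own. There are 5 for Prpf19, 2 for Vps37c, 2 for Golga7b and 4 for Hps1. The genes were picked for their difference between the lines, so that difference is described below and supports no call. The tissue difference and the variation among arrays of a group were not used to pick them.

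The arrays measured total RNA from amygdala and hippocampus of male mice of line 24 (low freezing) and line 25 (high freezing). Freezing is the immobility of a mouse returned to a place where it had received shocks, and the lines come from selection on contextual fear conditioning. Each of the 4 groups holds 6 arrays, numbered 1 to 6 in the low line and 7 to 12 in the high line. No drug, transgene or other treatment is named in the labels, while age, founding strain and pooling of animals go unstated. With 1 line for each phenotype, line 24 and line 25 differ in whatever separates these 2 breeding lines, whether by selection or by drift, and these cannot be told apart. Nothing in the labels says that the 6 arrays of a group come from 6 animals, so the errors below measure the spread between arrays. In bulk tissue, fewer cells of a type and less RNA per cell cannot be told apart.

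The 4 proteins work in different parts of the cell. Prpf19 is a U-box ubiquitin ligase that forms the core of the Prp19 complex, which joins the spliceosome as it is activated and also acts in DNA damage signalling. Vps37c is a subunit of ESCRT-I, one of the complexes that sort ubiquitinated membrane proteins into the vesicles of multivesicular bodies. Golga7b belongs to the Golgin A7 family, whose members bind and stabilise palmitoyltransferases, the enzymes that attach palmitate to cysteines of membrane and synaptic proteins. Hps1 pairs with Hps4 in a complex that activates Rab32 and Rab38 for traffic to lysosome-related organelles such as melanosomes and platelet granules, and loss of either causes Hermansky-Pudlak syndrome.

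In the order of the reference table, 5 protein-coding genes lie between Vps37c and Prpf19 and 4 lie between Golga7b and Hps1, so each pair is closely linked, while 297 lie between the pairs. The 250 bases before the outermost listed start of each gene are shown because the 4 genes were grouped by place and by a shared direction, and the promoters give the reader the DNA that stands at each place. All 4 genes were matched by symbol, and the sequences are those of RefSeq on GRCm38.p6, not of line 24 or line 25. They are written 5′ to 3′ along the gene, at chr19:10894981-10895230 for Prpf19, chr19:10688485-10688734 for Vps37c and chr19:42247328-42247577 for Golga7b on the plus strand, and at chr19:42779979-42780228 for Hps1 on the minus strand. Capitals mark matches, on either strand, to 5 promoter motifs. These are the GC box, whose letters are GGGCGG, the CCAAT box, the E box with the letters CACGTG, the cAMP response element with the letters TGACGTCA and the promoter element named TATA box with the letters TATAAA.
Prpf19: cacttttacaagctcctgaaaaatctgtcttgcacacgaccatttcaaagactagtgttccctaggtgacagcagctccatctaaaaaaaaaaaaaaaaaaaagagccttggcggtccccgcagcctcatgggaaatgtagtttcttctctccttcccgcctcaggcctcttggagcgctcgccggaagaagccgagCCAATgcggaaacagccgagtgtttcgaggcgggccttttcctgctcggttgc
Vps37c: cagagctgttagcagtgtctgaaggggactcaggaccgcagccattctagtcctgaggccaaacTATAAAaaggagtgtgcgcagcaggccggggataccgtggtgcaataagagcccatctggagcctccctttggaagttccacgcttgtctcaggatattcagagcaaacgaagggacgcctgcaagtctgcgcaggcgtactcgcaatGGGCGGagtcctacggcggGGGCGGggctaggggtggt
Golga7b: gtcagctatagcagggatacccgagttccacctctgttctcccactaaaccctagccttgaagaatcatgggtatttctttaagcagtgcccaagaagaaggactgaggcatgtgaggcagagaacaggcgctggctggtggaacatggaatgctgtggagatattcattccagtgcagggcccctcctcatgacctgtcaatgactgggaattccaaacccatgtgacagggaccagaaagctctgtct
Hps1: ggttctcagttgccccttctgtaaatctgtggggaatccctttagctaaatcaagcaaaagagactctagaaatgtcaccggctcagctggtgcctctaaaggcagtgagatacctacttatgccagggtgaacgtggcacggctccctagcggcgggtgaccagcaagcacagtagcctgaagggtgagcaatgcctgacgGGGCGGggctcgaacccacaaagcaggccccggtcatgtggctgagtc
The Vps37c stretch held 2 GC box matches and 1 TATA box match, that of Prpf19 held 1 CCAAT match, that of Hps1 held 1 GC box match and that of Golga7b held none. A second listed Golga7b start, with the stretch at chr19:42255489-42255738, held 3 GC box matches and had a GC content of 66%. GC content of the printed stretches ran from 51.2% to 58.8%, against a median of 52.4% over 32851 promoters of the same length. Among those promoters 32.7% held a GC box match, 33.8% a CCAAT match, 6.02% an E box match, 1.55% a cAMP response element match and 12.4% a TATA box match. No one of these motifs was in all 4 printed stretches, and a match is a description of letters only.

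Values are given as log2(signal + 16), where the signal is the authors' linear intensity and 4 is the lowest possible value. A difference of 1 on this scale is a doubling at high signal and more than that at low signal. Across all probe sets the median level was 5.93, and 9 of the 13 probe sets of the 4 genes lay above it. Levels of different probe sets are not compared as amounts of RNA, since each has its own probes. Before the members, 4 facts about the arrays matter. Array medians ran from 43.31 to 55.72 in linear signal, with hippocampus array 7 the highest. The ratio of the actin 5′ to 3′ control signals was 0.301 and 0.339 on amygdala arrays 7 and 8 of the high line, and between 0.4965 and 0.6296 on the 6 low line amygdala arrays. The 18S rRNA control signal ran from 5859 to 7093 on low line and from 3600 to 5800 on high line hippocampus arrays, which do not overlap. On amygdala arrays it ran from 295.5 to 1148 in the low line and from 324 to 1525 in the high line, with overlap. Every amygdala array lay below every hippocampus array, and the part of this in the tissue differences below was not tested. The summed linear signal of 10 hippocampal marker genes ran from 10220 to 11080 on low line and from 8746 to 9437 on high line hippocampus arrays, again without overlap, and its part in the line differences below was not tested. The tissue labels held: 9 of those 10 markers were higher in hippocampus at an adjusted p under 0.05 and 8 of 9 amygdala markers were lower there.

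Prpf19 was read by 5 probe sets that disagreed. Both that lay lower in the high line, 1449635_at and 1419839_x_at, carry the same GenBank target accession in the annotation, so they are not separate readings of the gene. In hippocampus, 1449635_at ran from 9.52 through a median of 9.72 to 9.78 in the low line and from 8.81 through 8.90 to 9.24 in the high line. Its amygdala values were 9.52, 9.62 and 9.90 (lowest, median, highest) in the low line and 9.09, 9.17 and 9.56 in the high line. Every high line hippocampus array lay below every low line one, whereas in amygdala high line array 8, at 9.56, reached past 1 low line array. In linear terms the hippocampus medians were 826 for line 24 and 462 for line 25, and those of amygdala were 768 and 560. On the log2 scale the high line was lower by 1.67-fold in hippocampus (difference -0.74, SE 0.09) and by 1.36-fold in amygdala (-0.44, SE 0.10). The second probe set, 1419839_x_at, gave -0.74 (SE 0.09) and -0.52 (SE 0.11).

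The other 3 Prpf19 probe sets did not show this. The brightest, 1456531_x_at, lay at the 99.2 percentile of all probe sets and read 11.70, 11.78 and 11.86 in the low line and 11.73, 11.77 and 11.83 in the high line of the hippocampus. Its line difference was -0.002 (SE 0.06) there and 0.06 (SE 0.08) in amygdala. The probe set 1460633_at, with a mean of 8.80, differed by 0.01 (SE 0.06) and -0.06 (SE 0.10). The high and low line values of these probe sets overlapped in both tissues. The dim 1444939_at, with a mean of 4.72, had an SE of 0.28 in hippocampus and 0.25 in amygdala, which would hide a difference of the size seen on 1449635_at in amygdala. Taken within each array, 1449635_at minus 1456531_x_at was lower in the high line by -0.741 (SE 0.095) in hippocampus, without overlap, and by -0.502 (SE 0.123) in amygdala, with overlap. These values restate the line difference that picked the gene.

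**Figure D1:**
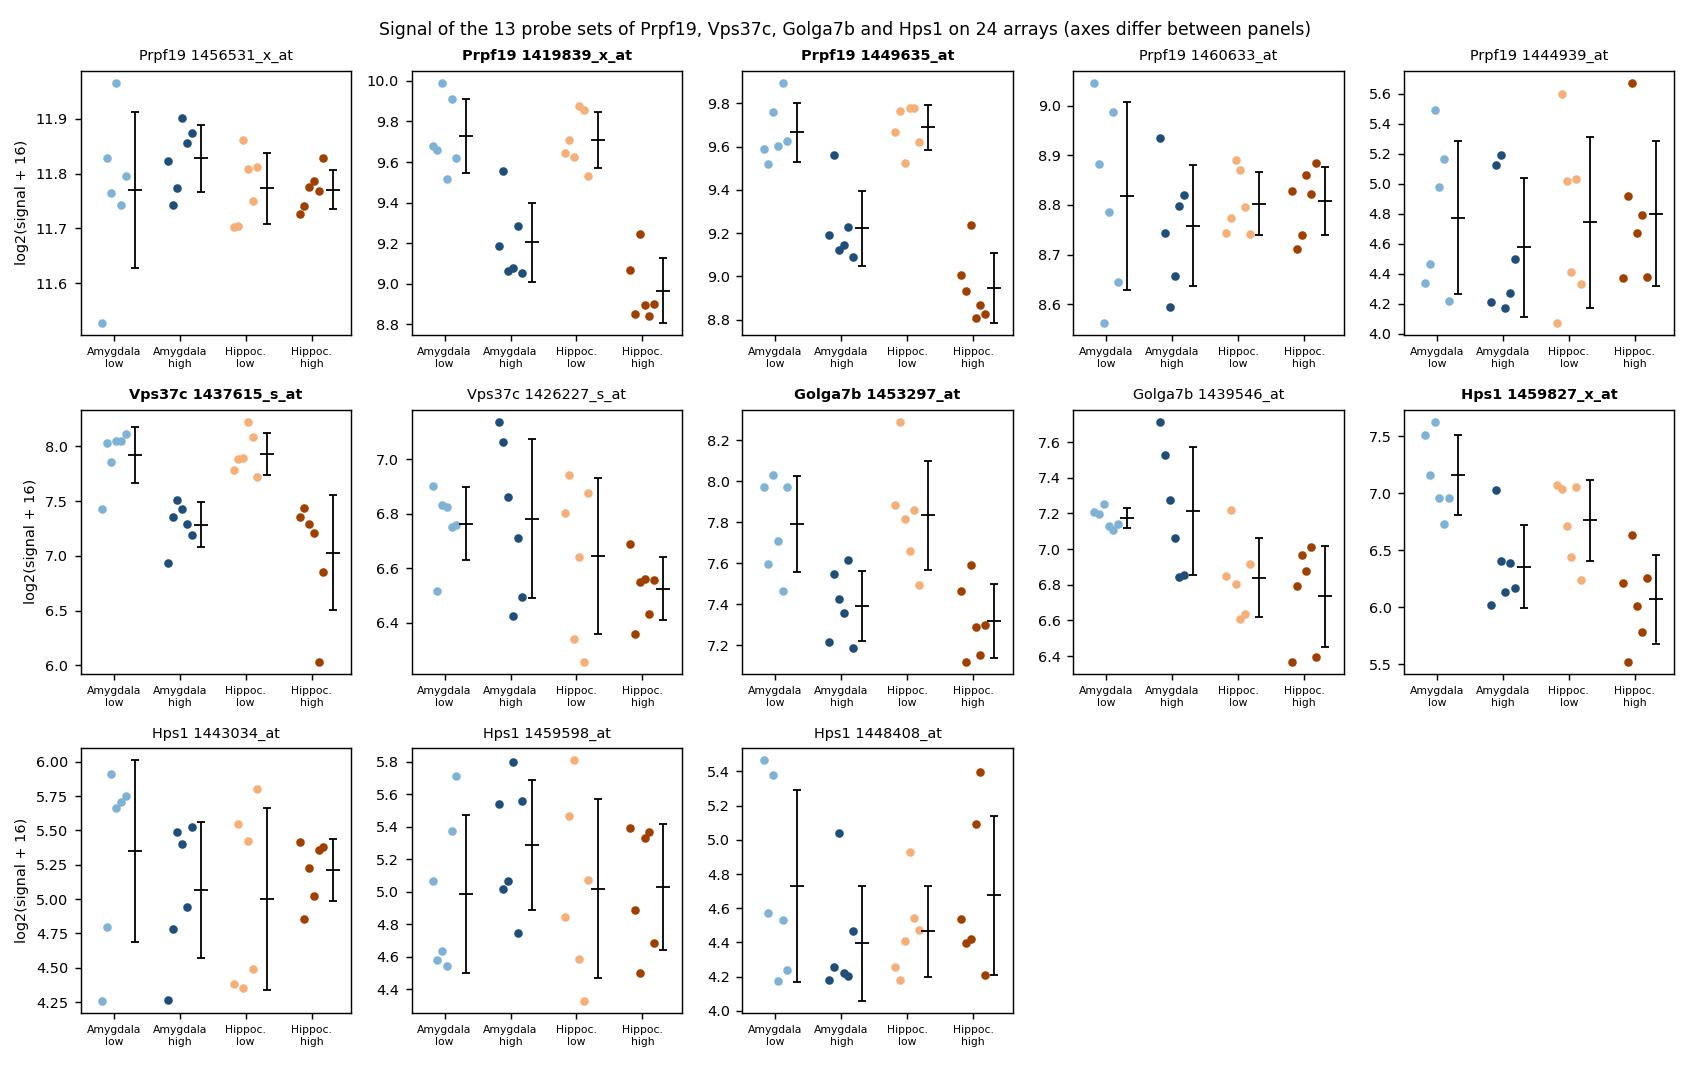
Signal on every array, as log2(signal + 16) on the y axis, for the 13 probe sets, with arrays grouped by tissue and line on the x axis, bars of the mean ± SD, and the 5 shifted probe sets in bold. The Prpf19 probe set 1449635_at runs from 8.81 to 9.24 on high line and from 9.52 to 9.78 on low line hippocampus arrays, while 1456531_x_at stays near 11.8 in every group.

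Vps37c, the ESCRT-I subunit, had a brighter and a dimmer probe set. On 1437615_s_at the hippocampus values were 7.72, 7.89 and 8.23 in the low line and 6.03, 7.25 and 7.44 in the high line, with no overlap. In amygdala they were 7.43, 8.04 and 8.11 in the low line and 6.94, 7.32 and 7.51 in the high line, and low line array 1 fell within the range of the high line. The lowest hippocampus value, 6.03, came from array 11 alone. The line difference was -0.90 (SE 0.21), or 1.87-fold, in hippocampus and -0.70 (SE 0.13) without array 11, and it was -0.64 (SE 0.13), or 1.55-fold, in amygdala. The other probe set, 1426227_s_at, had hippocampus medians of 6.72 and 6.55 in the low and high line, overlapped in both tissues, and differed by -0.12 (SE 0.13) and 0.02 (SE 0.13). Within arrays, the brighter minus the dimmer probe set was lower in the high line by -0.784 (SE 0.268) in hippocampus and -0.655 (SE 0.221) in amygdala.

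Golga7b, the palmitoyltransferase partner, also split. The probe set 1453297_at read 7.49, 7.84 and 8.29 in low line and 7.12, 7.29 and 7.59 in high line hippocampus. In amygdala it read 7.46, 7.84 and 8.03 in the low line and 7.19, 7.39 and 7.61 in the high line. The groups overlapped in both tissues, with the low line medians above every high line array. Its line difference was -0.51 (SE 0.13), or 1.43-fold, in hippocampus and -0.40 (SE 0.12), or 1.32-fold, in amygdala. The other probe set, 1439546_at, had equal medians in the lines to 2 decimals, 6.83 in hippocampus and 7.17 in amygdala, and differed by -0.10 (SE 0.14) and 0.04 (SE 0.14). Within arrays, the first minus the second was lower in the high line by -0.411 (SE 0.172) in hippocampus and by -0.44 (SE 0.19) in amygdala, with overlap in both.

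Hps1 was read by 1 probe set above the median of all and 3 below it. On the brightest, 1459827_x_at, the hippocampus values were 6.24, 6.88 and 7.07 in the low line and 5.52, 6.11 and 6.63 in the high line. The amygdala values were 6.73, 7.06 and 7.63 in the low line and 6.02, 6.28 and 7.03 in the high line. Both tissues overlapped, and amygdala array 8 of the high line, at 7.03, lay above 3 of the low line arrays. The line difference was -0.69 (SE 0.20), or 1.62-fold, in hippocampus and -0.80 (SE 0.19), or 1.74-fold, in amygdala. Hps1 was the one gene of the 4 with the larger value in amygdala, but the tissues differed by only 0.11 (SE 0.28). In linear terms the low and high line medians were 102 and 53.4 in hippocampus and 118 and 61.8 in amygdala. The 3 dim probe sets, 1443034_at, 1459598_at and 1448408_at, had means of 5.16, 5.08 and 4.57 and hippocampus differences of 0.21 (SE 0.26), 0.01 (SE 0.25) and 0.21 (SE 0.20). In amygdala they differed by -0.28 (SE 0.30), 0.30 (SE 0.23) and -0.33 (SE 0.24). Their high and low line values overlapped, and their median linear signals ran from 2.86 to 35.4, so they bear little on whether the gene's level differed.

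Over the 13 probe sets, 5 had an unadjusted p under 0.01 in both tissues in the same direction, which is the pattern that drew the genes out, against 0.16% of all probe sets, or 0.0822% with the high line lower. These 5 ran from -0.90 to -0.51 in hippocampus and from -0.80 to -0.40 in amygdala. The other 8 ran from -0.12 to 0.21 and from -0.33 to 0.30, and 7 of the 8 had opposite signs in the tissues. At an adjusted p under 0.05 the limma fit called 2 of the 13 in hippocampus, both of Prpf19, against 0.0222% of all probe sets (0.0155% with the high line lower), and 0 of the 13 in amygdala, against 0.00222%. The 2 hippocampus calls were lost with log2(value + 1) and in 10 of the 12 fits that left out 1 array, where only those without array 7 or 9 of the high line called them. By overlap, 3 of the 13 lay wholly lower in the high line in hippocampus, against 0.298% of all probe sets (0.637% in either direction). In amygdala 0 of the 13 did, against 0.206% (0.402% in either direction), and 0 of the 13 did in both tissues, against 0.0111%. These shares restate how the genes were picked. All 5 were among the 9 probe sets above the median of all, and in Vps37c, Golga7b and Hps1 the brightest probe set was the shifted one. In Prpf19 it was not, and the brightest and the fourth brightest of its 5 lay near 0. None of the 4 dim probe sets was among the 5. Their spread, and the shrinking of fold differences at low signal, could hide differences like those of the 5. In low line hippocampus SDs ran from 0.264 to 0.661 on the dim and from 0.064 to 0.357 on the bright probe sets, and in low line amygdala from 0.483 to 0.661 and from 0.056 to 0.349. In the high line they ran from 0.334 to 0.497 and from 0.061 to 0.361 in amygdala. High line hippocampus differed, with 0.225 to 0.481 on the dim and 0.036 to 0.528 on the bright, the highest being that of Vps37c 1437615_s_at.

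**Figure D2:**
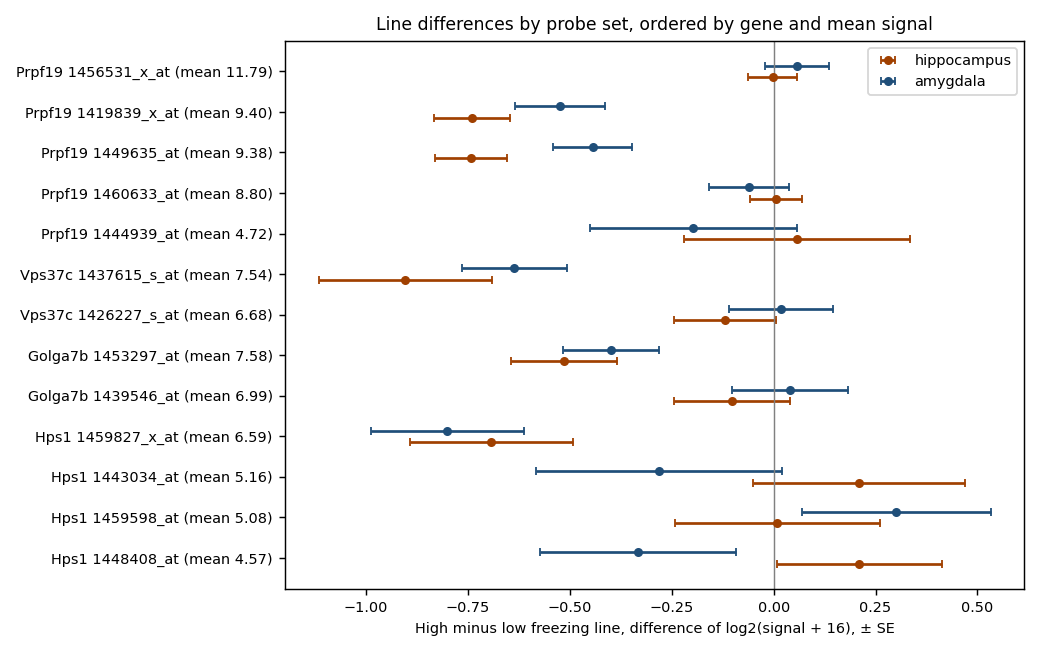
High minus low line difference of log2(signal + 16) on the x axis for the 13 probe sets, ordered by gene and mean, with bars of 1 SE, in hippocampus and amygdala. The 5 shifted probe sets lie between -0.90 and -0.40 in both tissues, and the other 8 lie between -0.33 and 0.30.

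Leaving out arrays that stood apart kept the direction of the 5, which restates the difference that picked the genes. Amygdala array 8 was the highest of the high line on both Prpf19 probe sets and Hps1, which pulled their differences toward 0. Without amygdala arrays 7 and 8, the amygdala differences were -0.52 (SE 0.09) for Prpf19 1449635_at, -0.57 (SE 0.14) for Vps37c, -0.39 (SE 0.13) for Golga7b and -0.88 (SE 0.17) for Hps1. Hippocampus array 9 was the highest of the high line on both Prpf19 probe sets, Golga7b and Hps1. Leaving it out could only enlarge the differences of those probe sets. Without it the hippocampus differences were -0.80 (SE 0.08) for 1449635_at, -0.96 (SE 0.23) for Vps37c, -0.57 (SE 0.13) for Golga7b and -0.81 (SE 0.19) for Hps1. Without hippocampus array 7 they were -0.75 (SE 0.09), -0.97 (SE 0.22), -0.54 (SE 0.14) and -0.72 (SE 0.22) in the same order. The line difference itself did not differ between tissues at an adjusted p under 0.05 on any of the 13 probe sets, where the limma fit called 0% of all probe sets. At an unadjusted p under 0.05 it differed on 1 of the 13, 1449635_at (-0.30, SE 0.13, adjusted p = 0.669), against 7.08% of all.

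The tissue difference, hippocampus minus amygdala over both lines, was not used to pick the genes. It was called by limma at an adjusted p under 0.05 for 1 of the 13 probe sets, against 25.8% of all. That was Golga7b 1439546_at, the one without a line difference. Its amygdala values were 7.11, 7.17 and 7.25 in the low line and 6.84, 7.17 and 7.72 in the high line. In hippocampus they were 6.61, 6.83 and 7.22 in the low line and 6.37, 6.83 and 7.01 in the high line. The tissues overlapped, and hippocampus was lower by 1.32-fold (-0.41, SE 0.10, adjusted p = 0.0043 in limma). The shifted Golga7b probe set gave -0.01 (SE 0.09, adjusted p = 0.931 in limma), so the 2 readings of Golga7b differed in the tissue contrast as well, the other way round from the line contrast. On Hps1 1459827_x_at the tissue difference was -0.34 (SE 0.14, adjusted p = 0.0817 in limma). The shifted Prpf19 probe sets both gave -0.13, with adjusted p = 0.202 and 0.155, and Vps37c 1437615_s_at gave -0.12 (SE 0.13, adjusted p = 0.538 in limma).

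Whether linked genes varied together among arrays of one group was asked with the brightest probe set of each gene, in deviations from the group mean, which hold no line difference. For Golga7b and Hps1 the correlation was above 0 in each of the 4 groups. Over 6 arrays each, Pearson's r was 0.72 in low line amygdala (exact permutation p = 0.128), 0.71 in high line amygdala (exact p = 0.0944), 0.80 in low line hippocampus (exact p = 0.0361) and 0.94 in high line hippocampus (exact p = 0.00833). Without the 2 arrays farthest from the median of Golga7b, r was 0.66, 0.93, 0.95 and 0.80 in that order. None of the 24 relations, 6 gene pairs in 4 groups, passed a Benjamini-Hochberg adjusted p of 0.05, and the lowest was 0.2 in these two-sided exact tests. Pooling the deviations of the 12 arrays of a tissue gave r = 0.84 in hippocampus (Spearman's rho 0.90, two-sided permutation p = 0.00044 for r, adjusted p = 0.00528 over 12 relations). In amygdala r was 0.71 (rho 0.65, permutation p = 0.0174, adjusted p = 0.104). Leaving out any 1 array moved the hippocampus r between 0.78 and 0.94 and the amygdala r between 0.63 and 0.82. Without the 2 arrays farthest from the median of Golga7b, r was 0.91 in hippocampus and 0.56 in amygdala.

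The Vps37c and Prpf19 pair did not vary together in this way. With the brightest Prpf19 probe set the pooled r was 0.56 in amygdala (permutation p = 0.124, adjusted p = 0.372) and -0.10 in hippocampus (permutation p = 0.696, adjusted p = 0.76). The amygdala value ran from -0.01 to 0.67 as single arrays were left out, so it rested on 1 array. With the shifted probe set 1449635_at, r was 0.12 in amygdala and 0.42 in hippocampus (permutation p = 0.747 and 0.264, adjusted p = 0.795 and 0.528). Among the unlinked pairs, 1 gene from each stretch, the 16 relations with the brightest probe sets had a median r of -0.18, with 6 above 0 and a range from -0.75 to 0.55. With 1449635_at for Prpf19 their median was 0.32, with 11 above 0 and a range from -0.72 to 0.88. That change came with the choice of Prpf19 probe set, whose 2 kinds of reading also varied differently among arrays. Over pooled hippocampus arrays, r of 1449635_at was 0.51 with Golga7b and 0.48 with Hps1, above its 0.42 with the linked Vps37c. The 2 shifted Prpf19 probe sets, which share a target accession, varied together with r = 0.89 in amygdala and 0.86 in hippocampus (permutation p = 0.00247 and 0.0022, adjusted p = 0.0445 for each over the 36 relations of probe sets of 1 gene). No other pair of probe sets of 1 gene passed that threshold.

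**Figure D3:**
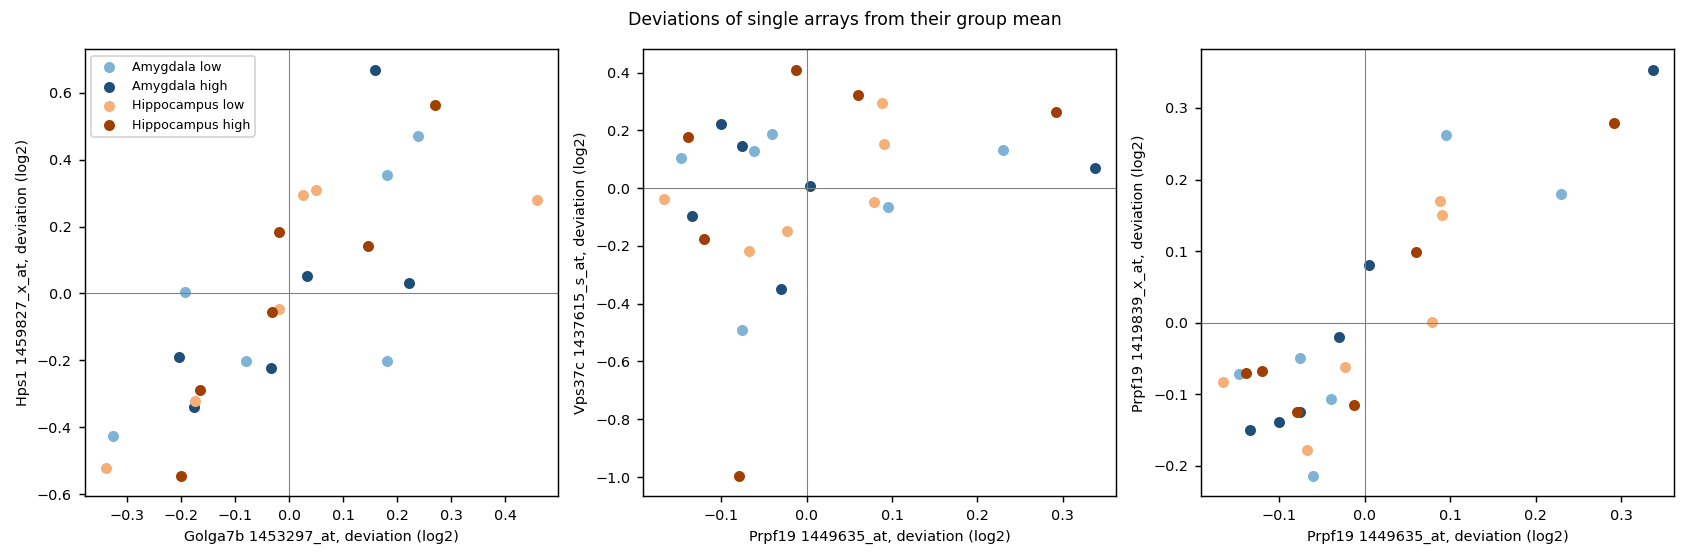
Deviation of each of the 24 arrays from its group mean in log2(signal + 16), for Hps1 against Golga7b, Vps37c against Prpf19 1449635_at, and the 2 shifted Prpf19 probe sets, with colours for the 4 groups. The Golga7b and Hps1 points follow a rising line (r = 0.78 over 24 arrays), the Vps37c and Prpf19 points do not (r = 0.28), and the 2 Prpf19 probe sets do (r = 0.88).

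Set against all 45036 other probe sets, the correlation of Golga7b 1453297_at with Hps1 1459827_x_at over 24 arrays was the highest for each of them, r = 0.78, as a description. Among the probe sets ordered by their correlation with Hps1, Golga7b ranked 2 with log2(value + 64) and 3 with quantile normalization, while Hps1 stayed at rank 1 in the order for Golga7b. In hippocampus alone each ranked 17 and 27 in the other's order, and in amygdala alone 291 and 367. For Prpf19 1449635_at and Vps37c the ranks over 24 arrays were 4343 and 6399. The deviations share each array's scaling and RNA, so correlated probe sets need not share anything else. The next genes by this measure were Ptges3l and Fam107a for Golga7b (r = 0.73 each) and Fam107a (0.75) and Spindoc (0.73) for Hps1. For Vps37c they were Etv2 (0.84), Slc31a2 (0.82) and Inpp4b (0.79), and for the brightest Prpf19 probe set Fbxw11 (0.84), Ndn (0.83) and Chaserr (0.82).

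For Prpf19 1449635_at the nearest genes were Myrf (0.77), Nsa2 (0.77) and Pla2g1b (0.75), and for 1419839_x_at Nsa2 (0.86), Myrf (0.77) and Mt4 (0.76). Myrf, the transcription factor that drives myelin gene expression in oligodendrocytes, also lies on chromosome 19, 13 protein-coding genes from Vps37c and 19 from Prpf19. Its 1 probe set read 7.37, 7.60 and 7.92 in low line and 6.75, 7.12 and 7.89 in high line hippocampus. In amygdala it read 6.57, 7.05 and 7.26 in the low line and 5.98, 6.43 and 7.04 in the high line. The lines overlapped in both tissues, and the highest high line arrays were amygdala 8 and hippocampus 9, the same arrays as for Prpf19 1449635_at. The line difference of Myrf was -0.41 (SE 0.18) in hippocampus and -0.60 (SE 0.18) in amygdala, neither called by limma (adjusted p = 0.546 and 0.564). Its r with 1449635_at was 0.91 in hippocampus (0.80 to 0.94 without 1 array) and 0.66 in amygdala (0.35 to 0.77). Myrf was picked for its r over these same arrays, so these values and the shared highest arrays restate that choice. In the order for 1449635_at, Myrf ranked 4 in hippocampus alone and 512 in amygdala alone. The summed signal of 4 oligodendrocyte markers overlapped between the lines, from 10980 to 13350 in low and 10480 to 14070 in high line hippocampus, and from 8161 to 9324 and 8169 to 9799 in amygdala.

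No chromosomal neighbour, Myrf included, passed the test in a line contrast. Around Vps37c and Prpf19, 32 of 35 listed genes were measured, each by its brightest probe set, and limma called 0 in either tissue at an adjusted p under 0.05. At an unadjusted p under 0.05, 7 of the 32 passed in hippocampus and 1 in amygdala, against 8.97% and 6.54% of all probe sets. Around Golga7b and Hps1, limma called 0 of the 33 measured of 34, with 5 and 1 at an unadjusted p under 0.05. As shares, both hippocampus counts were above 8.97% and both amygdala counts were below 6.54%. Of the 7 in hippocampus 3 were lower in the high line, as were 3 of the 5. The median line differences were 0.04 and 0.03 in hippocampus and 0.01 and 0.03 in amygdala, beside 0.02 and -0.007 over all probe sets. Among all probe sets of these neighbours, 0 of 50 and 0 of 69 had an unadjusted p under 0.01 in both tissues. The share that did so over all named probe sets was 0.172%, which counts the 5 shifted probe sets of the 4 genes. Over all named probe sets of chromosome 19 other than the 4 genes, 2 of 1144 did, 0.175%, so the rest of the chromosome was near that share. These 2 read Prune2 (-2.84 in hippocampus and -3.04 in amygdala), a BNIP2 family gene, and Sfxn4 (0.59 and 0.49), a sideroflexin of mitochondria.

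**Figure D4:**
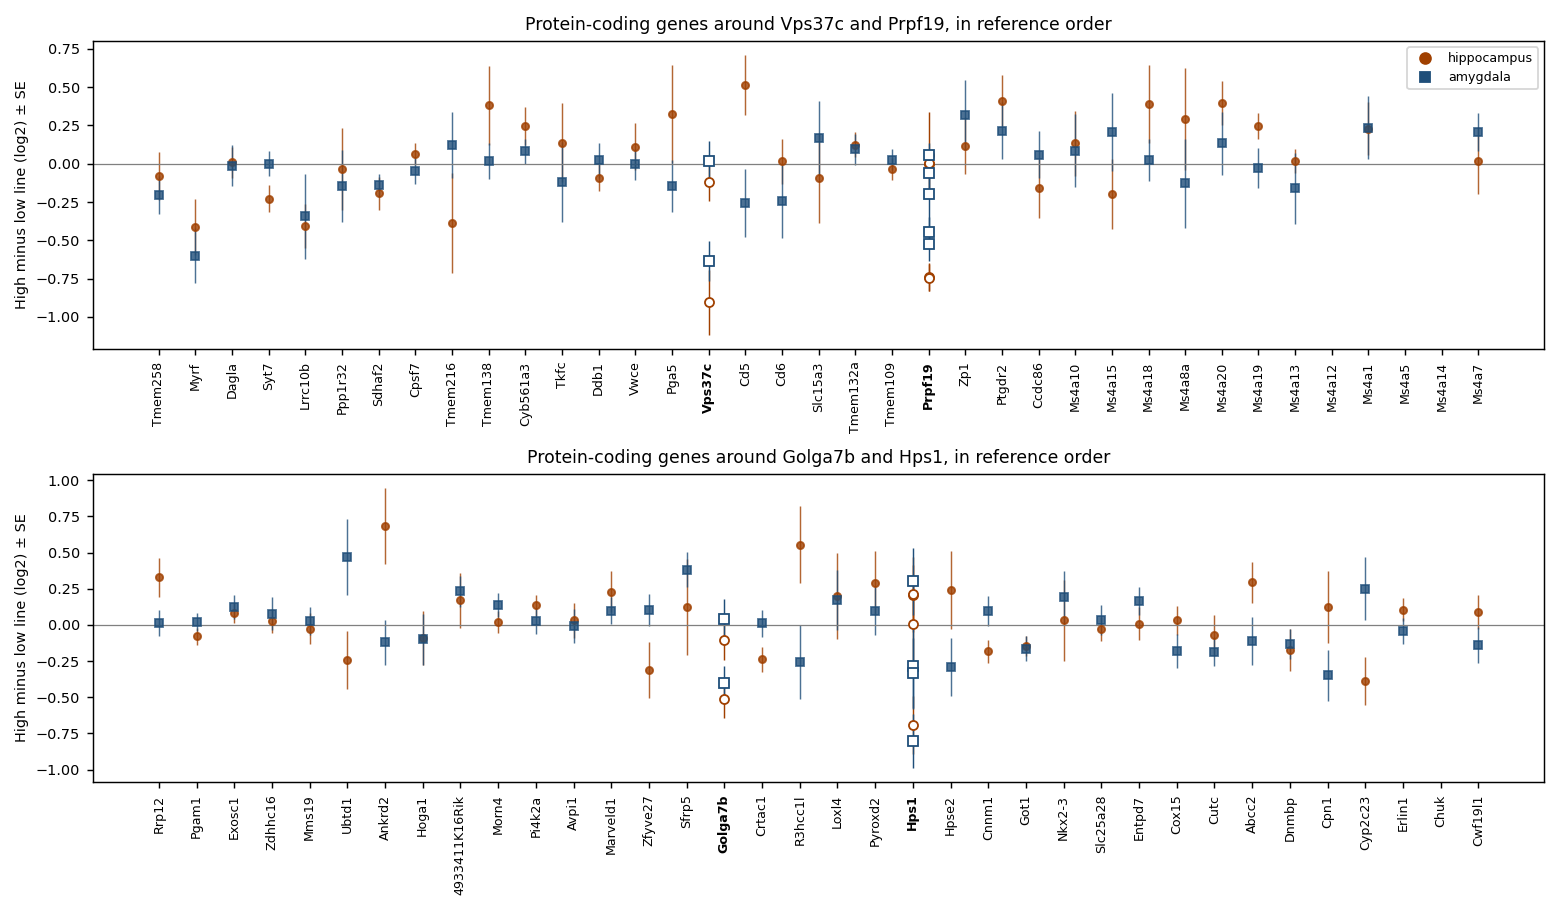
High minus low line difference in hippocampus and amygdala, in log2(signal + 16), with bars of 1 SE, for the 4 genes (open symbols, every probe set) and their neighbours (filled, brightest probe set) in chromosomal order. The 4 genes' shifted probe sets, which were picked for this difference, stand at -0.90 to -0.40, and their other 8 lie between -0.33 and 0.30. The median neighbour lies between 0.01 and 0.04. Single neighbours run from -0.60 (Myrf in amygdala) to 0.685 (Ankrd2 in hippocampus).

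The tissue difference of the neighbours gives a view of these stretches that the line difference does not. Around Vps37c and Prpf19, limma called 4 of the 32 genes higher and 4 lower in hippocampus. Tmem132a was lower by 1.67-fold (-0.74, adjusted p = 2.73e-09 in limma) and Dagla, which makes the endocannabinoid 2-arachidonoylglycerol, was higher (0.65, adjusted p = 2.38e-06 in limma). Syt7, a slow calcium sensor of vesicle release, was also higher (0.41) and Cd6 lower (-0.76). Around Golga7b and Hps1, 4 of the 33 were higher and 6 lower. Erlin1, a membrane protein of the endoplasmic reticulum, was lower (-0.63, adjusted p = 5.47e-09 in limma) and Crtac1, a secreted matrix protein of neurons, was higher (0.52, adjusted p = 4.6e-07 in limma). Both shares, 8 of 32 and 10 of 33, were near the 25.8% of all probe sets.

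Partner genes of the 4 proteins were followed in both contrasts. In the line contrasts limma called 0 members of the 4 lists in either tissue. At an unadjusted p under 0.05 the counts were 0 of 16 for the Prp19 complex, 3 of 22 for ESCRT genes, 1 of 20 for palmitoylation genes and 2 of 20 for lysosome-related organelle genes in hippocampus, and in amygdala 0, 0, 2 and 0 in that order. Over all probe sets the shares were 8.97% and 6.54%. As shares, the ESCRT and lysosome-related organelle counts in hippocampus and the palmitoylation count in amygdala were above these, and the others were below. Of the 3 ESCRT genes, 0 were lower in the high line, and of the 2 lysosome-related organelle genes, 2 were. For the Prp19 complex and its partners, 16 genes were measured and 1 was higher and 4 lower in hippocampus than in amygdala, against 12.9% lower over all probe sets. Bcas2 (-0.36) and Syf2 (-0.26), both components of the spliceosome's Prp19 assembly, were lower, as was Prpf4 (-0.27), and Crnkl1 was higher (0.26). The median of the list was -0.06, beside 0.02 over all probe sets. Of 22 ESCRT genes, 0 were higher and 10 lower, with a median of -0.10, where 12.9% of all probe sets were lower and 25.8% differed in either direction. Among them were Vps4a (-0.19), an ATPase that recycles ESCRT-III, Chmp2b (-0.27), a subunit of ESCRT-III, and the ESCRT-I subunits Vps37d (-0.30) and Mvb12b (-0.21). Vps37c itself did not pass the test on either probe set.

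Of 20 palmitoylation genes 1 was higher and 7 lower, again beside 12.9% lower and 25.8% in either direction over all probe sets, with a median of -0.08. The depalmitoylating enzyme Abhd17c was the one higher (0.57), and the palmitoyltransferases Zdhhc7 (-0.42), Zdhhc8 (-0.33) and Zdhhc14 (-0.28) were lower. Golga7b was lower on 1439546_at only, while 1453297_at did not differ (-0.01, SE 0.09). For the lysosome-related organelle genes, 20 of 21 were measured, with 2 higher and 4 lower and a median of -0.03, a share near the 25.8% of all probe sets. Lyst, the Chediak-Higashi gene, was higher (0.49), while the BLOC-1 subunits Bloc1s5 (-0.42) and Bloc1s6 (-0.32) and the AP-3 subunit Ap3d1 (-0.27) were lower.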

How the data were processed

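For each of 24 Affymetrix arrays, 6 in each of 4 groups, the authors deposited 1 linear intensity per probe set. Probe summarisation and software were not given in the sources used here. As the deposited intensities show, each array has a mean of 150 once its top and bottom 2% are set aside, while the medians still differ. The number of arrays limits precision.

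Of 45101 probe sets, 64 controls were left out and 45037 tested. The platform annotation gives 1 symbol to 34945 probe sets, of which 34741 were matched to the GRCm38.p6 RefSeq table through the Entrez identifier. The values name no genome build, so that table served for names and gene order only.

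log2(value + 16) was fitted with limma 3.58.1 (lmFit, eBayes) in R 4.3.3, the line difference in the 12 arrays of a tissue, the tissue difference and the difference of line effects as contrasts of the 4 group means. P-values were Benjamini-Hochberg adjusted over all 45037. The pseudocount shrinks differences of dim probe sets. Scripts were tested on simulated data. Correlations used deviations from group means, with exact permutations over 6 arrays and 100000 permutations within lines over 12. Alternatives were other pseudocounts, quantile normalization, median centring, a filter on the dimmest 40%, an intensity trend, a fit of all 24 arrays, array number as a block and leaving out single arrays.

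The members and lists were chosen with earlier results of these data known. Every member probe set is reported. In pathway and neighbour lists, a gene is read by its brightest probe set, and up to 4 called genes by lowest p are named. The 3 named genes most correlated with a member are given. No label ties equal array numbers to 1 animal. Of 12 pairs with equal numbers, 2 had a correlation of deviations over 0.1, which cannot settle whether the arrays are paired.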

Additional observations from a re-analysis of the deposited data

Results flagged for a closer look

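In 52 groups of 6 arrays, 13 probe sets in 4 groups, 3 had an array far from the other 5 by Dixon's test, where chance gives about 1 group in 20. Prpf19 1449635_at read 9.56 on array 8 of high line amygdala, while the other 5 arrays ran from 9.09 to 9.23. Without array 8 the amygdala line difference was -0.51 (SE 0.08) in place of -0.44. Vps37c 1437615_s_at read 7.43 on array 1 of low line amygdala, while the others ran from 7.86 to 8.11. Without array 1 its amygdala line difference was -0.73 (SE 0.11) in place of -0.64. The dim Hps1 1448408_at read 5.04 on array 9 of high line amygdala, while the others ran from 4.18 to 4.47.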

How the results depend on the processing

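The hippocampus line fit called 2 Prpf19 probe sets, and 0 with log2(value + 1). Without 1 array the number was 0 to 2, and it was 2 only without hippocampus array 7 or 9. Over those 12 fits the adjusted p of the 2 probe sets ran from 0.00609 to 0.106, while their difference stayed between -0.80 and -0.71. The 24 array fit called 3, adding Vps37c 1437615_s_at. No amygdala alternative called a member. The tissue fit called 1 member in each of 7 other settings and 1 to 2 without 1 array, the second being Hps1 1459827_x_at (-0.40, adjusted p = 0.0378) without hippocampus array 9. Pooling the arrays of a tissue moved the number of correlations past the threshold from 0 to 1, Golga7b with Hps1 in hippocampus, which r of 0.81 to 0.86 kept under every scaling tried. With array number as a replicate block, the tissue fit called 1 member, 18 neighbours and 25 pathway genes, in place of 1, 18 and 29, and the difference of line effects called 0. Deviations showed no pairing by array number, with correlations between -0.0565 and 0.127, and 2 of 12 pairs correlated best with their own number. Low correlations between different tissues cannot settle whether equal numbers are 1 animal. Of 985 single values recomputed, 980 kept their side of the threshold or moved by less than 1 SD, and 0 reversed. The 4 dim probe sets were limited by their signal. Their SE was 0.20 to 0.30 and the pseudocount shrinks their fold differences. Differences like those of the shifted probe sets could therefore be missed on them.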

Other observations

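Between tissues, deviations of the arrays with the same number had r = -0.47 for Golga7b, -0.21 for Hps1, 0.10 for Vps37c, 0.48 for the brightest Prpf19 probe set 1456531_x_at and -0.08 for Prpf19 1449635_at over 12 array numbers, as a description. The second listed starts of Prpf19 and Vps37c lay in stretches with a GC content of 44% and 39.2%.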
